A study of Polypedilum vanderplanki with 72 samples.

Results

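The 38 genes described here had low RNA levels in HSF1 knockout cells under 2 treatments, trehalose and heat shock, and stood near or above the wild-type level in a line that carries the HSF1 isoform V3. They are 38 of the 17156 genes in the deposited table. HSF1, heat shock factor 1, is a transcription factor that gathers into trimers when cells are stressed, binds heat shock elements in promoters and switches on chaperone genes such as those of the HSP70 and HSP90 families. It also acts at genes that are not chaperones and at temperatures that are not harmful. The cells are Pv11, a cultured line from the sleeping chironomid Polypedilum vanderplanki, whose larvae survive almost complete drying, and in this midge heat shock regulation has been linked to drying tolerance.

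PolyA RNA was measured in 24 groups of 3 libraries. The lines V1, V2, V3, V4 and V5-6 each express 1 Pv HSF1 isoform in cells whose own HSF1 was knocked out, Dma and Dmb express Drosophila HSF1a and HSF1b in the same knockout background, KO cells have the knockout alone, and WT cells are unmodified Pv11. All 9 genotypes were sampled after 48 h in 600 mM trehalose (T48), the treatment that precedes drying, and after 6 h of heat shock (HS6h), whose temperature and medium the labels do not give. The 5 isoform lines and WT were also sampled 24 h after rehydration (R24), which followed the same trehalose treatment and 11 days of desiccation. The labels describe clonal lines and show 1 line per HSF1 form, so the form and the clone cannot be told apart, and no untreated cells are among the groups.

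Members were chosen by mean CPM, the counts of a gene scaled to a common library total, with 0.5 CPM added. A member had at least 3 CPM in WT at T48 and at HS6h, a WT level at HS6h under 4 times that at T48, a KO level at or below 0.5 of WT in both treatments, and a V3 level at or above 0.67 of WT in both. Of 6658 genes that met the WT conditions, 265 met the KO condition at T48 (3.98%), 135 at HS6h (2.03%) and 60 at both. V3 reached the level asked for in 38 of these 60. With the transcripts of a gene summed, 25 of the 38 lay at or below 0.5 of WT in KO at T48 and 18 at HS6h, and 2 and 9 lay at or above 0.67. Library totals for the sums were 18.5 to 26.1 times larger, and 0.5 CPM was still added, which draws KO ratios of low genes upward. These numbers thus do not separate the choice of transcript from the weight of the added CPM. Of 274 transcripts of the members with at least 3 CPM in both WT groups, 264 had KO at or below 0.5 of WT in both treatments. The V3, KO and WT libraries of T48 and HS6h therefore chose the members, and their values are given as a description with no test. The tests below use only the other 6 lines at T48 and HS6h, and all R24 libraries.

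The deposited table pairs no gene ID with a name, and 0 of the IDs matched the 17863 loci of the reference table. HSF1 itself, which would check the KO labels, could not be found for that reason, and nothing is known here of what the members encode. Gene counts per library ran from 3043636 to 8808472, and the members together took between 0.0702% and 0.956% of them. Libraries of a group differed most at R24, where the variance between a pair was up to 15.3 times that of counting error, against up to 5.37 times at T48 and 8.49 times at HS6h. All 38 members passed the filter on low counts.

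In the libraries that chose them, members ranged from near loss to a drop close to the limit. KO held between 0.00859 and 0.490 of the WT level at T48, with a median of 0.352, and between 0.0221 and 0.496 at HS6h, with a median of 0.334. V3 lay above WT in both treatments for 24 members, with a median of 1.32 times WT at T48 and 1.83 times WT at HS6h. In WT itself 28 of the 38 were lower after heat shock than in trehalose, and the median ratio of HS6h to T48 was 0.457, against 0.752 over the 6658 genes. Most of the 6658 genes were thus lower as well, and their share was not counted. The rule itself kept out rises of 4 times or more. The WT level averaged over both treatments had a median of 28.7 CPM, close to the 27.9 CPM of the 6658 genes, with 16 members at 50 CPM or more and 8 under 10 CPM.

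The member with the largest loss was g6912. At T48 it had 0.471, 0.544 and 0.197 CPM in KO libraries, against 110.2, 108 and 95.8 CPM in WT libraries. The KO libraries held 5 reads of it and the WT libraries 1085. With reads and gene counts each summed over the libraries of a group, the WT level was 271 times that of KO. After heat shock the KO libraries held 1 read and the WT libraries 530, a ratio of 402 whose exact 95% interval, for counting error alone and as a description, ran from 71.9 to 15916. V3 had 223.8, 239 and 209 CPM at T48 and 101.5, 105 and 111 CPM at HS6h, above all WT libraries of the same treatment. The next largest loss was that of g4436, with 1 read in the KO libraries and 83 in the WT libraries at T48, a ratio of 104 (interval 18.1 to 4150).

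At the other end of the rule lay g12825 and g8346. The first is scarce, at 1.95 ± 0.525 CPM in KO and 4.69 ± 1.35 CPM in WT at T48 (SD, n = 3 each), and the second had 15.6 ± 1.33 CPM in KO and 33.5 ± 6.46 CPM in WT. Nearest inside the limit on KO were g12825, with 0.496 of WT at HS6h, and g13601, with 0.493. Just outside it were g10631, at 0.503 of WT at HS6h, and g10951, at 0.504 at T48. Nearest to the limit on V3 were g13341 inside, at 0.718 of WT at T48, and g3255, at 0.774, with g4232 at 0.653 and g14329 at 0.627 outside. Leaving out each of the 18 libraries the rule uses in turn kept between 34 and 38 of the members, and 27 were kept every time.

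The 2 most abundant members were g553 and g16202. At T48 g553 had 320.3, 313 and 334 CPM in KO, against 979, 1102 and 1062 CPM in WT, and at HS6h 253, 252 and 238 CPM in KO against 753, 791 and 733 CPM in WT. The KO and WT libraries were far apart in both treatments. For g16202 V3 lay at 1589 ± 129.7 CPM, KO at 350.4 ± 6.76 CPM and WT at 805 ± 26.5 CPM at T48 (SD, n = 3 each), so V3 stood well above WT.

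**Figure D1:**
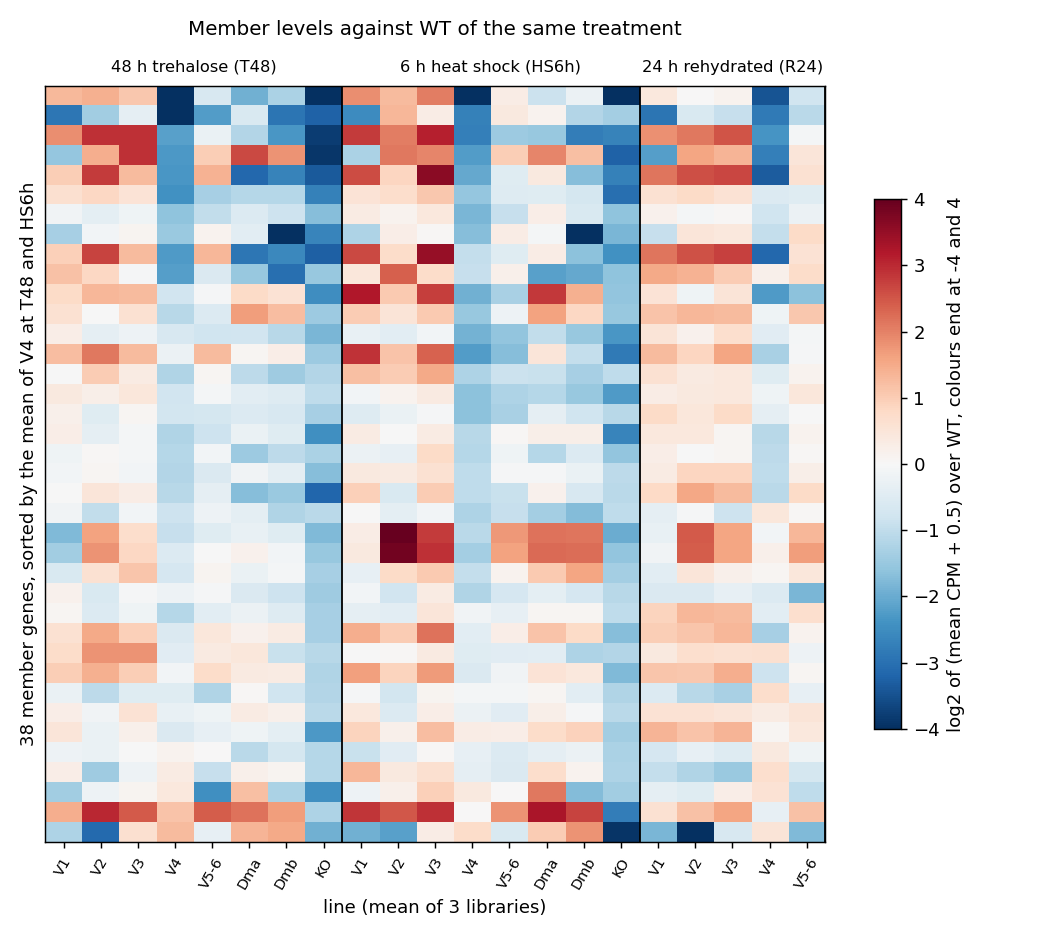
Each row is 1 of the 38 members and each column a line in 1 treatment; colour gives log2 of mean CPM + 0.5 over WT of that treatment (3 libraries per group), with rows sorted by V4 at T48 and HS6h. Blue cells dominate in KO, which the rule required, and in V4, while V1, V2 and V3 are mostly pale or red.

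The other lines differed widely in how many members they left low. At T48 17 of the 38 members lay at or below 0.5 of WT in V4 (2.48% of the 6658 genes did), 14 in Dmb (5.92%), 10 in Dma (4.03%), 7 in V1 (1.80%), 4 in V2 (6.26%) and 4 in V5-6 (3.45%). After heat shock the numbers were 23 in V4 (1.80%), 12 in Dmb (3.03%), 6 in V5-6 (1.19%), 5 in Dma (2.43%), 4 in V1 (2.00%) and 1 in V2 (3.23%). At or above 0.67 of WT at T48 were 32 members in V2 (84.5% of the 6658 genes), 30 in V1 (94.6%), 27 in V5-6 (89.9%), 25 in Dma (83.4%), 18 in Dmb (74.5%) and 13 in V4 (92.6%). At HS6h they were 34 in V2 (87.9%), 33 in V1 (91.4%), 30 in Dma (92.1%), 26 in V5-6 (96.1%), 20 in Dmb (88.7%) and 12 in V4 (95.6%). With the transcripts of a gene summed, those at or below 0.5 of WT numbered 12 in V4, 5 in Dmb and 3 in Dma at HS6h. At T48 they numbered 5 in Dma and 2 in V2, and 20 members lay at or above 0.67 in V4 at HS6h. The 0.5 CPM added weighs more on low genes in these sums, so the part of transcript choice alone is not shown. With TMM-scaled library sizes, 9 lay at or below 0.5 in Dmb at T48 and 10 in V5-6 at HS6h. These ratios share the WT libraries with the rule and are given without a test. V4 was the lowest of the 6 lines for 19 members at T48, against 5.87% of the 6658 genes, and for 22 at HS6h, against 6.80%. V2 was the highest for 18 members at T48, against 21.4% of the genes, and V1 for 18 at HS6h, against 8.14%.

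As medians of log2 over WT, V4 lay at -0.79 and KO at -1.51 at T48, and V4 at -1.13 and KO at -1.58 at HS6h. V1 lay at 0.22 and 0.36, V2 at 0.15 and 0.37, V5-6 at -0.24 and -0.38, Dma at -0.29 and 0.20, and Dmb at -0.68 and -0.49, each given for T48 and then for HS6h. The median over the 6658 genes was between -0.30, for Dmb at T48, and 0.19, for V4 at HS6h. V4 was at or below 0.5 of WT for 14 members in both treatments, for 3 at T48 alone, for 9 at HS6h alone and for 12 in neither. All 6 lines stood at or above 0.67 of WT in both treatments for 4 members. How many of the 6658 genes met these joint conditions was not counted, so these numbers describe the members alone.

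Lines that carry different isoforms were compared for these genes in libraries that had no part in choosing the members. V4 was set against V1, the line of the first-numbered isoform. Each isoform is 1 line here, so the tests compare lines and cannot separate isoform from clone. V4 was called lower for 26 of 38 members at T48, where 15.3% of all 8576 genes tested were called lower, and higher for 4, against 16.0%. At HS6h it was called lower for 32 members, against 18.9% of all genes, and higher for 1, against 13.6%. The median log2 difference of the members was -1.05 ± 0.04 at T48 and -1.78 ± 0.11 at HS6h (SD of the median over libraries), while that of all genes was 0.01 and -0.03. Calls are those of edgeR's quasi-likelihood test at a Benjamini-Hochberg adjusted p under 0.05 over all genes. In bulk RNA, fewer cells with a transcript and less of it per cell cannot be told apart.

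The largest drop in V4 was again that of g6912. It had 9.00, 3.08 and 6.02 CPM in V4 at T48, against 261, 238 and 272 CPM in V1, and 0.554, 0.454 and 0.425 CPM in V4 at HS6h, against 91.4, 91.4 and 93.4 CPM in V1. No V4 library came near a V1 library in either treatment. The log2 difference was -5.37 (SE 0.15, edgeR adjusted p = 3.31e-45) at T48 and -7.77 (SE 0.23, adjusted p = 2.31e-44) at HS6h, where V4 held 7 reads in all. The gene g17255 had 7.12 ± 1.67 CPM in V4 and 124 ± 11.3 CPM in V1 at T48, a log2 difference of -4.09 (SE 0.18), and 0.497 ± 0.365 CPM in V4 and 45.5 ± 8.67 CPM in V1 at HS6h, a difference of -6.76 (SE 0.29; SD, n = 3 each). The abundant g553 lay in V4 just above the KO libraries at T48, at 346, 344 and 346 CPM. V1 had 958, 982 and 890 CPM there, a log2 difference of -1.42 (SE 0.06). At HS6h its V4 libraries, at 214, 222 and 208 CPM, lay below the KO libraries, at 253, 252 and 238 CPM.

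A single member, g4155, was called higher in V4 than in V1 at T48, HS6h and R24, as were 2.51% of the 8340 genes tested in all 3. At T48 it had 2004, 1887 and 2018 CPM in V4, against 343, 340 and 367 CPM in V1, a log2 difference of 2.53 (SE 0.07, edgeR adjusted p = 4.01e-47). The lines spread over a wide range for this gene, since V2 had 94.4 ± 7.71 CPM, Dma 2091 ± 30.1 CPM, Dmb 2348 ± 206 CPM, KO 214 ± 8.68 CPM and WT 822 ± 30.1 CPM (SD, n = 3 each). V2 was below KO at T48, and V1 lay at 0.426 of WT.

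**Figure D2:**
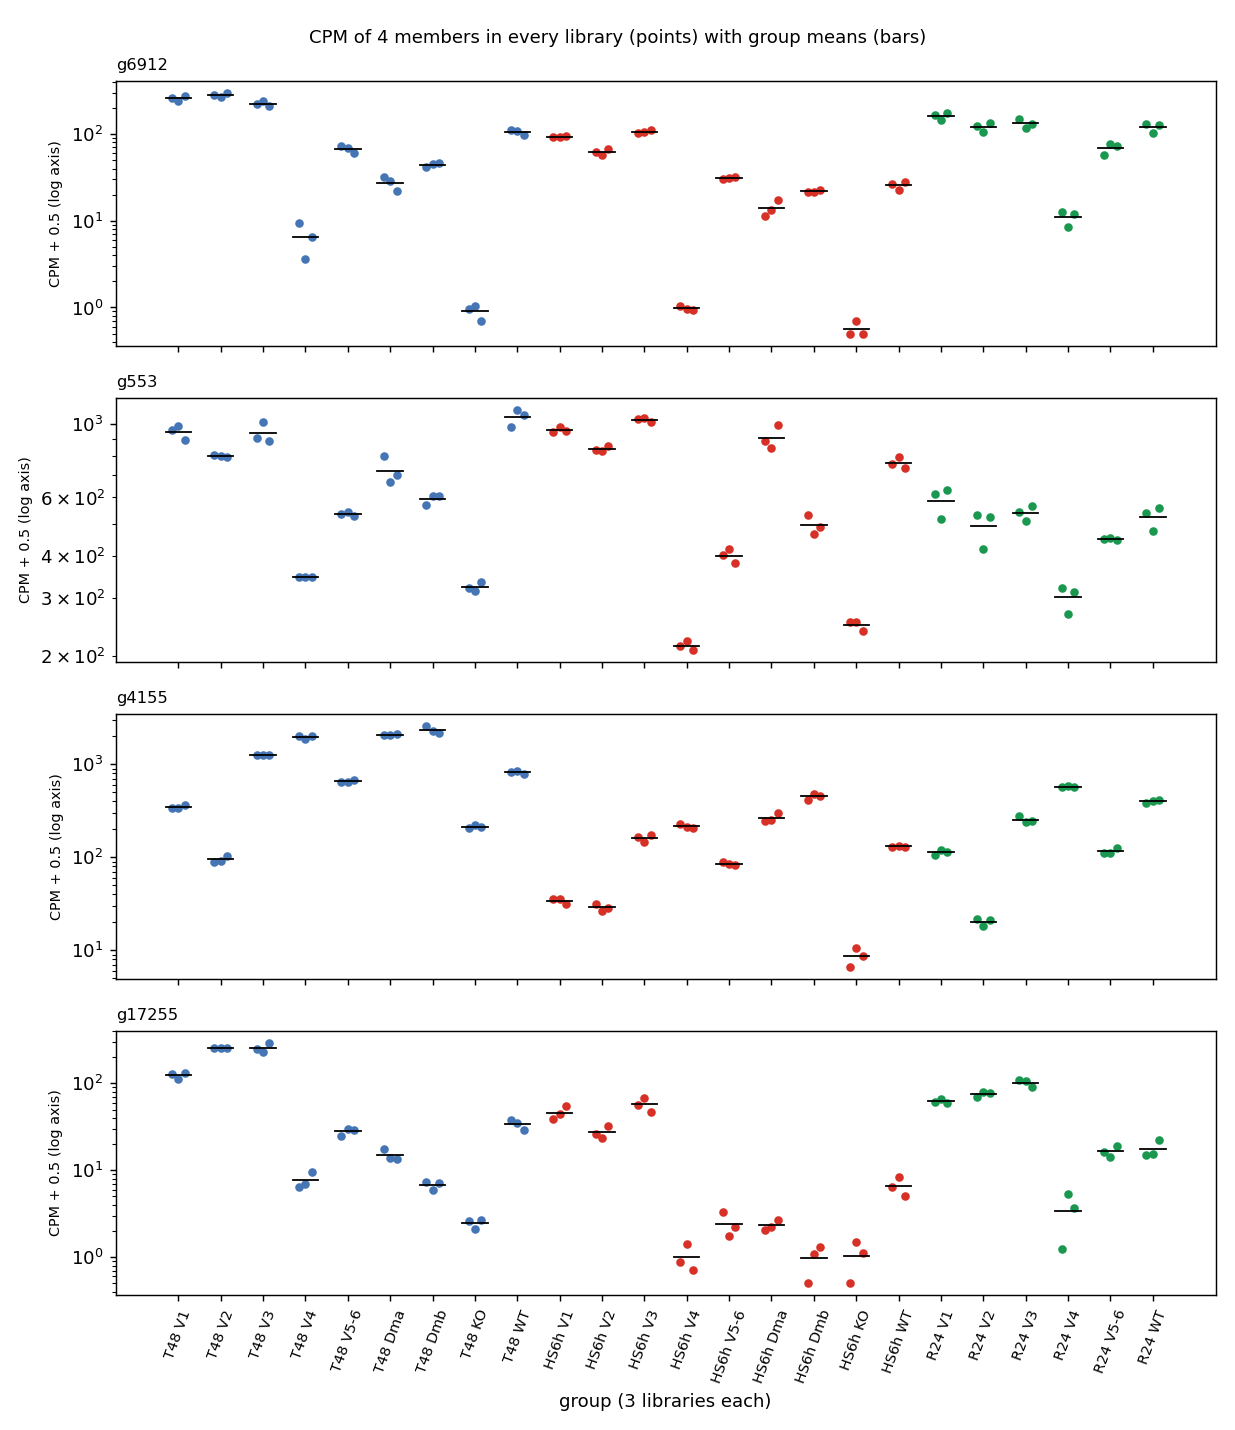
CPM + 0.5 on a log axis in every library of all 24 groups for g6912, g553, g4155 and g17255; points are libraries and bars group means. For g6912, g553 and g17255 the V4 libraries sit far below those of V1, V2 and V3 at T48 and HS6h, and for g4155 V4 sits above V1 and V2.

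V5-6 stood between V4 and V1. Against V1 it was called lower for 16 members at T48 (15.7% of all genes) and higher for 11 (17.9%), with a median difference of -0.27 ± 0.14. At HS6h it was called lower for 24 (11.5%) and higher for 6 (10.5%), with a median of -1.13 ± 0.20, so the lower calls lead clearly after heat shock. The largest drop at HS6h was g17498, with 1.67, 0.716 and 1.07 CPM in V5-6, against 34.0, 39.5 and 36.0 CPM in V1 (log2 -5.16, SE 0.23, edgeR adjusted p = 2.58e-32). At T48 the same transcript had 98.5 ± 3.80 CPM in V5-6 and 175 ± 13.2 CPM in V1. Rises in V5-6 included g3255, with 53.9 ± 3.35 CPM at HS6h against 6.80 ± 1.40 CPM in V1 (log2 2.79, SE 0.17).

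V2 was compared with V1 in each treatment, and the change of their difference between treatments was not tested. At T48 V2 was called higher for 20 members (21.9% of all genes) and lower for 6 (19.6%), with a median of 0.34 ± 0.19. Library totals as the only scaling gave 17 and 9, and the median of all genes moved to -0.11. At HS6h V2 was called lower for 18 (12.4%) and higher for 7 (13.7%), with a median of -0.26 ± 0.12. The pair g5804 and g5801 gave the largest rises at T48. The first had 151.8 ± 4.31 CPM in V2 and 14.2 ± 4.67 CPM in V1 (log2 3.54, SE 0.15, edgeR adjusted p = 3.08e-34), and at HS6h 118 ± 10.4 CPM in V2 and 8.86 ± 1.65 CPM in V1 (log2 3.70, SE 0.16). V1 was at the KO level for g5804 at T48, where KO had 13.9, 11.7 and 17.2 CPM and V1 10.9, 19.6 and 12.2 CPM.

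V1 thus left a few members low. The 7 members at or below 0.5 of WT in V1 at T48 were g3255, g4155, g4436, g5438, g5801, g5804 and g14668, chosen here after their values were seen, and 4 of them, the first 4, were also low in V1 at HS6h. For g4436, V1 had 2.39 ± 1.33 CPM at T48, against 7.99 ± 1.92 CPM in WT, while V3 had 63.9 ± 8.85 CPM, V2 22.9 ± 1.76 CPM and Dma 52.9 ± 7.96 CPM. V2, V3, V5-6, Dma and Dmb all lay above WT for this member, while V1 and V4 lay below it.

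The lines with the Drosophila forms were set against V1 and against each other. Dma was called lower than V1 for 14 members at T48 (12.8% of all genes) and higher for 11 (16.8%). With library totals as the only scaling these numbers were 20 and 9, and the median of all genes moved to -0.30. At HS6h Dma was called lower for 21 (18.6%) and higher for 10 (14.7%). Among the largest drops was g16175, at 7.04, 6.92 and 4.63 CPM in Dma, against 95.4, 95.8 and 97.4 CPM in V1 at T48 (log2 -3.66, SE 0.19, edgeR adjusted p = 7.45e-29). Dmb was near it, at 7.82 ± 1.43 CPM, as was KO at 4.65 ± 1.12 CPM, while WT had 49.3 ± 14.4 CPM (SD, n = 3 each). Both Drosophila lines were at or below 0.5 of WT in both treatments for 2 members, and both at or above 0.67 for 16. The share of the 6658 genes that met these joint conditions was not counted. In 1 line and 1 treatment at a time, 74.5% to 92.1% of them lay at or above 0.67, and 2.43% to 5.92% at or below 0.5.

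Dmb lay below Dma for more members than above it. It was called lower for 10 at T48 (8.78% of all genes) and higher for 5 (9.74%), and lower for 17 (12.2%) and higher for 4 (10.5%) at HS6h, with medians of -0.12 ± 0.08 and -0.49 ± 0.11. The largest difference was that of g5438. It had 1.18, 0.498 and 0.856 CPM in Dmb at T48, against 20.8, 17.6 and 13.3 CPM in Dma (log2 -4.18, SE 0.34, edgeR adjusted p = 2.6e-17), and 1.12 ± 0.482 CPM in Dmb against 32.1 ± 2.65 CPM in Dma at HS6h (log2 -4.85, SE 0.28). Dmb thus held less of this transcript than KO, which had 3.29 ± 1.31 CPM at T48 and 9.10 ± 2.95 CPM at HS6h.

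**Figure D3:**
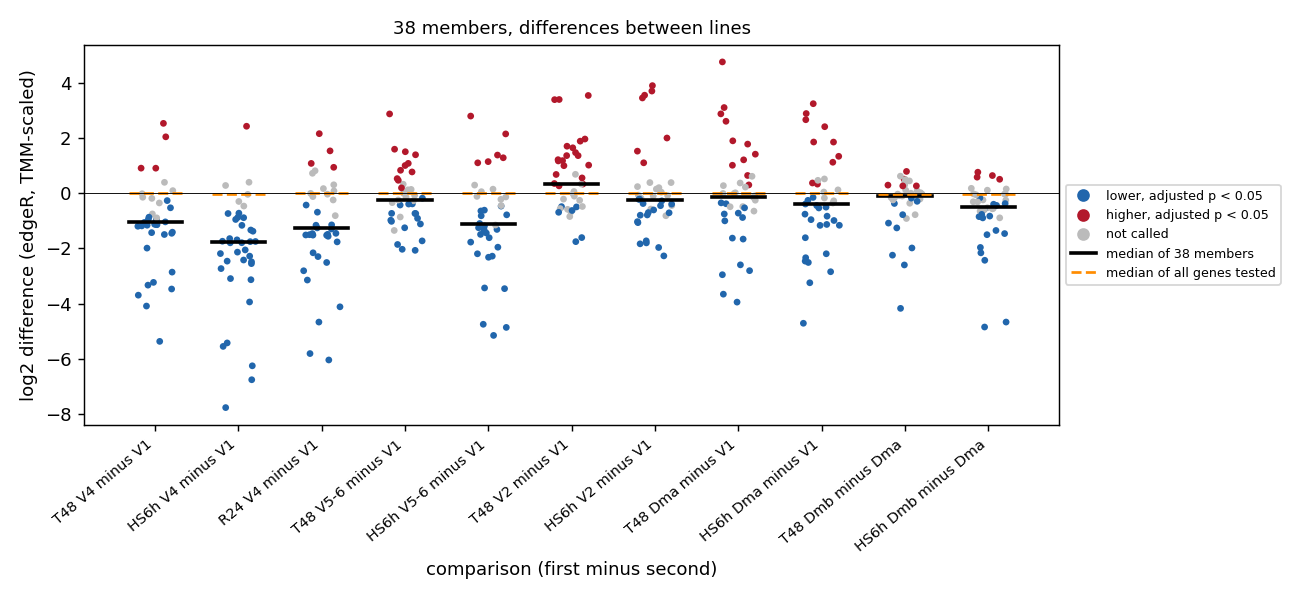
Log2 differences of the 38 members between lines, first minus second, in libraries the choice of members did not use; blue and red points passed an adjusted p of 0.05, black bars are member medians and dashed orange bars the medians of all genes tested. The V4 minus V1 medians are -1.05 at T48, -1.78 at HS6h and -1.28 at R24, and the V5-6 minus V1 median at HS6h is -1.13.

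After rehydration, where no library served to choose members and KO was not sampled, V4 was again the low line. Against WT it was called lower for 22 members (14.9% of 8929 genes) and higher for 1 (12.4%), with a median log2 difference of -0.76 ± 0.19. With library totals as the only scaling the calls were 18 lower and 4 higher, and the median of all genes moved to 0.27. V3 was called higher than WT for 23 members (15.3%) and lower for 5 (15.2%), V2 higher for 24 (17.4%) and lower for 3 (15.9%), and V1 higher for 17 (11.0%) and lower for 8 (9.72%). Their medians were 0.59 ± 0.09 in V3, 0.58 ± 0.23 in V2 and 0.38 ± 0.15 in V1. Members called lower in V1 numbered 4 without its replicate 1, those called lower in V3 numbered 3 without its replicate 3 or without WT replicate 1, and the 1 called higher in V4 was lost without replicate 1 or 3 of V4 or replicate 1 or 2 of WT.

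For 17 members V3 was called higher and V4 lower than WT at R24, against 3.81% of all 8929 genes, 2 comparisons that share the WT libraries. One of them was g16175, with 178, 139 and 136 CPM in V3 and 1.36, 2.83 and 2.10 CPM in V4, against 19.9, 22.5 and 24.2 CPM in WT. Its log2 difference from WT was 2.73 (SE 0.17, edgeR adjusted p = 1.29e-11) in V3. All V3 libraries lay above and all V4 libraries below the WT libraries. The member g6912 had 10.5 ± 2.14 CPM in V4 and 119 ± 14.2 CPM in WT at R24, while V3, at 132 ± 17.2 CPM, overlapped WT.

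V5-6 was the line nearest to WT at R24, with 8 members called higher (7.66%), 8 lower (8.97%) and a median of -0.05 ± 0.05. Library totals as the only scaling gave 13 higher and 6 lower there, and the median of all genes moved to 0.15. The rises included g5804, at 110.5, 102 and 106 CPM in V5-6 against 45.4, 43.7 and 38.0 CPM in WT (log2 1.17, SE 0.13, edgeR adjusted p = 3.06e-07). Against V1, V4 was called lower at R24 for 24 members (18.7%) and higher for 4 (17.7%), with a median of -1.28 ± 0.23, and 23 members were called lower in V4 than in V1 at T48, HS6h and R24, against 5.01% of the 8340 genes tested in all 3.

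Libraries at R24 were uneven, and replicate 2 of V1, V2 and V4 and replicate 1 of V3 were in the pairs with the largest spread. All transcripts summed came to 20.7 to 23.7 times the gene counts in these 4 libraries, against 18.5 to 22.2 times in the other libraries of the same lines. Without these 4 libraries V4 was called lower than WT for 22 members and higher for 3, V3 higher for 21 and lower for 4, V2 higher for 24 and lower for 3, and V1 higher for 19 and lower for 9. V5-6 was called higher for 13 and lower for 8, with a median of -0.04 for the members and 0.0045 for all genes. Shares of all genes called without these 4 libraries are not given here, so a change in calls particular to the members is not shown. The part that this spread plays in single members was not tested.

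**Figure D4:**
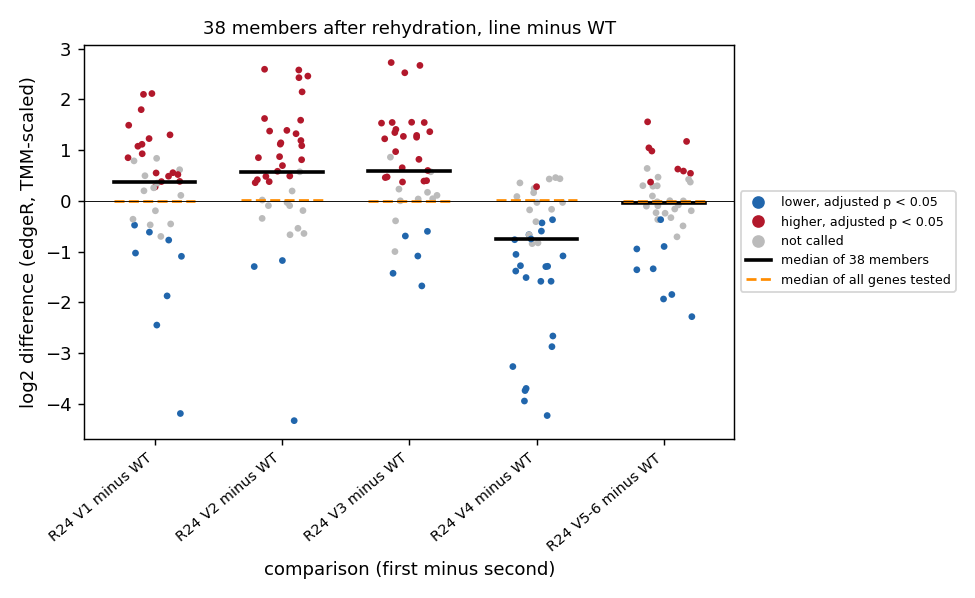
Log2 differences of the 38 members from WT at R24 for the 5 isoform lines, with colours and bars as in the plot of line differences. The median of the members is above 0 for V1, V2 and V3, close to 0 for V5-6 (-0.05) and lowest for V4 (-0.76).

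Heat shock against trehalose was compared within each of the 6 lines that had no part in the choice. HS6h and T48 differ in duration as well as in heat, the labels give trehalose for T48 but no medium for HS6h, and no untreated cells were sampled. Effects of heat and of trehalose therefore cannot be told apart in this comparison. In V4 21 members were called lower at HS6h (33.0% of all genes) and 6 higher (31.6%), with a median of -0.77 ± 0.13. V1 had 16 lower (31.2%) and 14 higher (30.1%), with a median of -0.06 ± 0.11, V2 18 lower (32.6%) and 14 higher (31.8%), and V5-6 18 lower (32.0%) and 9 higher (32.4%). Dma had 18 lower (29.2%) and 13 higher (29.0%), and Dmb 17 lower (30.8%) and 7 higher (31.5%). With library totals as the only scaling, V1 had 23 lower and 7 higher, V2 23 and 8, and Dmb 22 and 2. Under that scaling the median of all genes moved as well, to -0.68 in V1, -0.51 in V2 and -0.11 in Dmb. The medians of the members were then -0.70, -1.02 and -0.51 in the same order. Shares of all genes called under that scaling are not given here. Without replicate 2 of Dmb at HS6h, 4 members were called higher in Dmb.

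In all 6 lines 10 members were called lower after heat shock, against 14.6% of all genes, and 4 were called higher, against 13.8%, so the share of members called higher in all lines was near that of all genes. These 4 were g10070, g12182, g13601 and g4436. The member g13601 had 113 ± 9.83 CPM at HS6h and 39.9 ± 1.93 CPM at T48 in V4 (log2 1.84, SE 0.11, edgeR adjusted p = 5.01e-25). It had 132 ± 6.49 CPM at HS6h and 61.5 ± 4.12 CPM at T48 in Dmb (log2 1.25, SE 0.10). The steepest drop was that of g17498 in V4, with 0.369, 1.36 and 0 CPM at HS6h, against 55.8, 60.9 and 64.9 CPM at T48 (log2 -6.38, SE 0.26).

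The difference HS6h minus T48 is called the heat response here, though it also holds any effect of leaving trehalose out. It was called smaller or more negative in V4 than in V1 for 19 members (15.3% of all genes) and larger for 3 (10.7%). The median difference was -0.88 ± 0.11. With library totals as the only scaling these numbers were 13 and 5, and the median of all genes moved to 0.26. In g16201 the response differed by -4.12 (SE 0.18, edgeR adjusted p = 2.96e-32). It had 5.0 ± 1.58 CPM at HS6h and 84.8 ± 4.20 CPM at T48 in V4, and 194 ± 21.4 CPM at HS6h and 234 ± 15.9 CPM at T48 in V1 (SD, n = 3 each).

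**Figure D5:**
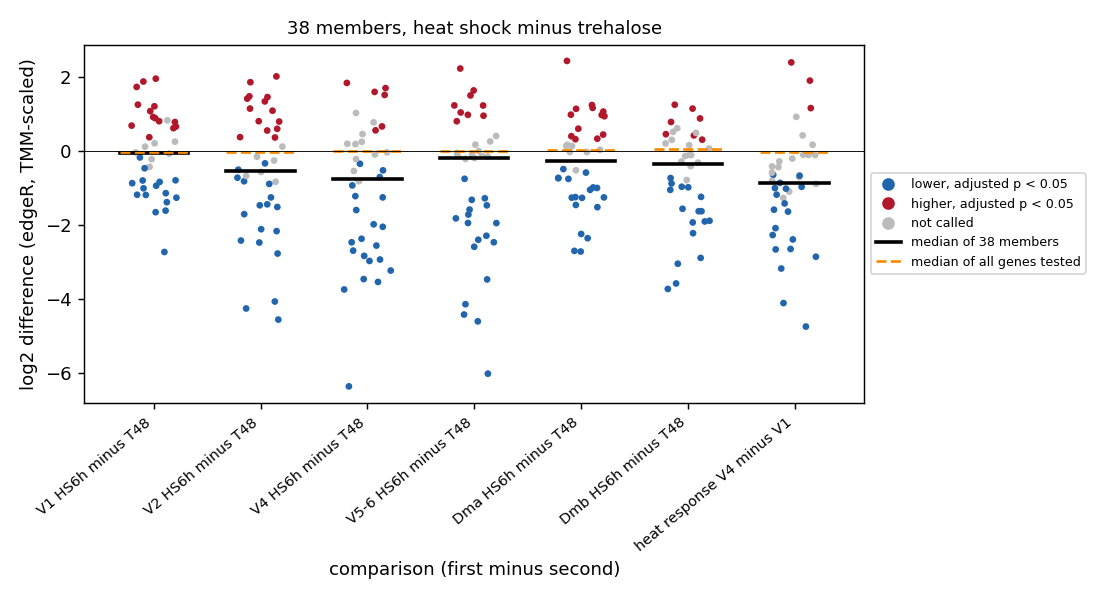
Log2 differences of the 38 members between HS6h and T48 within 6 lines, and at the right the difference of that response between V4 and V1, with colours and bars as in the plot of line differences. V4 has 21 members lower and 6 higher after heat shock, V1 16 lower and 14 higher.

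Some members may not be separate genes. In 5 pairs the ID numbers differ by 3 or less, and whether the numbers follow the genome is not given in the sources used here. The pair g16174 and g16175 had a ratio of counts between 0.712 and 0.982 in the 52 libraries with at least 20 reads of each, while the pair g17498 and g17499 ran from 0.0230 to 0.234 over 63 libraries and the pair g16201 and g16202 from 0.0204 to 0.240 over 69. Reads shared by g16174 and g16175, through overlap or near-identical sequence, could not be told apart from separate reads, so both are uncertain as single genes. The members hold 284 annotated transcripts, with a median of 3 per gene as in the 6658 genes.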

How the data were processed

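The authors deposited raw HTSeq counts in 1 table, with a row for each transcript and a column for each of 72 libraries. Named in the submitters' processing notes are FastQC 0.11.9, Trimmomatic 0.39, HISAT2 2.2.1 and HTSeq 2.0.9. The genome build, annotation and strand setting are not given in the sources used here, so antisense or overlapping genes cannot be told apart. Each gene was represented by its transcript with the highest total, out of 65235 transcripts, since the transcripts of a library sum to 18.5 to 26.1 times these gene counts. The 5 special rows were left out. Reads without a feature came to 38.3% to 46.5% of the sum of gene counts and such reads.

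Levels are CPM by library total. Tests used edgeR 4.0.16 in R 4.3.3: filterByExpr, TMM, the quasi-likelihood test, and Benjamini-Hochberg adjustment over all genes with a threshold of 0.05. The T48 and HS6h libraries of V1, V2, V4, V5-6, Dma and Dmb shared a fit of 36 libraries and 8576 genes, and R24 a fit of 18 libraries and 8929 genes. SE is the absolute log2 difference over the square root of F. TMM moved differences between groups of 1 treatment by -0.27 to 0.29 and the heat responses of single lines by 0.15 to 0.64 on the log2 scale. The 23 comparisons were adjusted separately. Alternatives were DESeq2 1.42.0, no TMM, no filter, summed transcripts, other sets of libraries and leaving out single libraries. The labels do not say whether libraries came from separate cultures, so p-values measure the spread between libraries, which may be technical.

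Members and tests were chosen with earlier results of these data known. Named members are the 2 with the lowest and highest KO ratio, the 2 most abundant, and per comparison up to 2 that fell and 2 that rose most among those called, with libraries that did not overlap and at least 5 CPM in 1 group; others are named as examples. The gene lists planned for named genes could not be used. The edgeR steps were tested on simulated data for V4 against V1 at T48 and HS6h and V4 against WT at R24. In that order 52.2%, 46.3% and 38.8% of changes of 1.5 times were recovered. For changes of 4 times these were 86.4%, 87.9% and 89.4%, and 5.88%, 5% and 4.29% of calls were false. Members not called may thus still differ. Intervals cover counting error only.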

Additional observations from a re-analysis of the deposited data

Results flagged for a closer look

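A difference between groups was found by testing the heat response, here the difference HS6h minus T48, in V4 against V1. It was called lower in V4 for 19 members (15.3% of all genes) and higher for 3 (10.7%) by edgeR's quasi-likelihood test, adjusted p under 0.05. With library totals as the only scaling, 13 were called lower and 5 higher, and the median of all genes moved to 0.26. The largest differences in the main test were -4.76 on the log2 scale for g17498 and -4.12 for g16201, both lower in V4. Those higher in V4 were 2.39 for g3255 and 1.90 for g8771. For g3255, V4 had 5.85 ± 1.02 CPM at HS6h and 2.44 ± 1.01 CPM at T48, while V1 had 6.80 ± 1.40 CPM at HS6h and 18.4 ± 1.97 CPM at T48 (SD, n = 3 each). The call for g8771 was lost without replicate 2 of V4 at T48 (1.48) and without replicate 3 of V4 at HS6h (1.65). Over all members, leaving out 1 library at a time gave 17 to 20 called lower and 2 to 3 called higher. These ranges do not show which members kept their calls.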

How the results depend on the processing

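Of 576 recomputed counts of members called, 560 stayed within 1.5 times the reported count, of 288 medians 268 moved by less than their spread, and of 1127 values of named members 13 lost their call and 0 changed direction. Of 126 counts of members by their share of WT 18 moved by over 1.5 times. Most of these were with the transcripts of a gene summed, where the 0.5 CPM added weighs more on low genes. With library totals as the only scaling, members called higher numbered 4 for V4 against WT and 13 for V5-6 against WT at R24, 7 for V1, 8 for V2 and 2 for Dmb for HS6h against T48, and 5 for the heat response of V4 against V1. Without the 4 uneven R24 libraries, an alternative chosen after seeing the data, they numbered 3 for V4 and 13 for V5-6 against WT. Shares of all genes called under these alternatives are not given here, and the cause was not tested. Leaving out 1 library at a time gave 4 to 9 members lower in V1, 3 to 5 lower in V3 and 0 to 1 higher in V4 than WT at R24, and 4 to 6 higher in Dmb for HS6h against T48. The same gave 24 to 26 members lower in V4 than V1 at T48 and 31 to 32 at HS6h. No paired analysis was possible because the labels give no replicate numbers, and those used here follow the order of deposit. Whether the R24 libraries that stand apart share a batch was not tested. Depth limits members under a few CPM, since 3 counts are the floor per library.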
